A study of Mus musculus with 12 samples.

Results

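The subject is a stretch of mouse chromosome 10 between 79 and 82 Mb (build mm10, GRCm38), dense in genes, in H3K27ac ChIP-seq peak lists of Azin2-/- and wild-type adipocyte progenitors. Its members were selected on position alone, as all peaks of the 6 deposited lists in this 3 Mb, merged where they overlapped by 1 bp or more. This gave 1975 merged regions of 2436862 on chromosomes 1 to 19 and X. The borders were chosen with earlier results of the same lists known, so the number and length of peaks here are a description and carry no test. Each genotype had 3 libraries, numbered 1, 2 and 8 for Azin2-/- and 1, 2b and 2 for wild-type, and the values of a genotype are given below in that order. The labels name adipose tissue and adipocyte progenitors for both genotypes. All cells came from subcutaneous fat and were cultured for 1 week, then kept for 2 days with rosiglitazone (1 µM), dexamethasone (1 µM), IBMX (0.5 mM) and insulin (5 µg/ml), and for another 5 days with insulin. The strain, age and sex of the mice and the kind of knockout allele were not given in the sources used here. Whether the 3 libraries of a group stem from separate animals is not in the labels, so p-values measure only the spread between these libraries.

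H3K27ac is the acetylation of lysine 27 on histone H3, a mark that sits on the nucleosomes beside active promoters and enhancers. At genes used in most cell types it lies around the transcription start, often in a CpG island, a stretch rich in unmethylated CpG dinucleotides. Azin2 encodes antizyme inhibitor 2, which binds antizyme and so frees ornithine decarboxylase, the first enzyme of polyamine synthesis. The segment holds Oaz1, which encodes antizyme 1, the partner that antizyme inhibitors bind. It also holds Dohh, whose enzyme completes hypusine, a residue of the translation factor eIF5A that is built from the polyamine spermidine.

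The segment holds 143 protein-coding genes, and RefSeq (GRCm38.p6) gives a promoter sequence and a start for 119 of them. The sequences below are the 150 bases before the annotated start, 5′ to 3′ on the gene's strand, with every CpG dinucleotide in capitals. They are shown because the number of CpG dinucleotides differs between starts that carried a strong peak in every library and starts that carried none. Gna11 and Oaz1 had a peak among the 30000 strongest within 1 kb of the start in all 6 libraries, Hmg20b in the 3 Azin2-/- libraries and no wild-type library, and Dohh in 1 Azin2-/- library. Elane and Vmn2r81 had one in no library.
Gna11, chr10:81545163-81545312, minus strand: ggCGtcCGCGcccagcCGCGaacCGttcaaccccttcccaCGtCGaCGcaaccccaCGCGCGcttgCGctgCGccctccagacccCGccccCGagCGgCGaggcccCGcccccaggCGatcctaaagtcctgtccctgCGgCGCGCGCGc
Oaz1, chr10:80826506-80826655, plus strand: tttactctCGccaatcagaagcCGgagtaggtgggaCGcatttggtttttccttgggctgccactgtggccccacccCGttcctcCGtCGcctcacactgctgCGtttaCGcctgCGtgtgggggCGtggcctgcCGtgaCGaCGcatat
Hmg20b, chr10:81350458-81350607, minus strand: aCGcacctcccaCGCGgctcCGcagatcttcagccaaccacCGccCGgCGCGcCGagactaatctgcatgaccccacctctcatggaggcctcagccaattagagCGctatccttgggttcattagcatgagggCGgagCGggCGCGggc
Dohh, chr10:81384284-81384433, plus strand: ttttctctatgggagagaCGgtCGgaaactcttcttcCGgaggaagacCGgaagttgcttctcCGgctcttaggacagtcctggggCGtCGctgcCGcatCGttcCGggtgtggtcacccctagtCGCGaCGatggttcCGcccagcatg
Elane, chr10:79886162-79886311, plus strand: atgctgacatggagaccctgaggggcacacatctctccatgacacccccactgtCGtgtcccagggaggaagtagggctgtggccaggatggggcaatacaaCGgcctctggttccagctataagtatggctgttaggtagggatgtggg
Vmn2r81, chr10:79247627-79247776, plus strand: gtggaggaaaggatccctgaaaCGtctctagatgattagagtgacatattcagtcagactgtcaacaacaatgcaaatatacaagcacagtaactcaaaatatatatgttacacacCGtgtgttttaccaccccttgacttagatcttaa

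These 150 bases hold 25 CpG dinucleotides at Gna11, which encodes the G protein subunit alpha 11, and 13 at Oaz1. They hold 14 each at Hmg20b, whose product belongs to a histone demethylase complex, and at Dohh. Both Elane, the gene of neutrophil elastase, and the vomeronasal receptor gene Vmn2r81 have 2. The start of Vmn2r81 lies in a stretch of 52.0 kb without any deposited peak, described below, whereas the start of Elane does not.

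Over the segment, starts with a strong peak in more libraries held more CpG dinucleotides, and the same order was seen over all genes. This was counted in 300 bases, 250 before to 50 after the start. Genes wholly inside a stretch over 10 kb without any peak were left out. Starts of genes only partly inside such a stretch, such as Vmn2r81, stayed in the counts. The median was 6.50 at the 18 segment starts with a peak in no library, 21.0 at the 60 with a peak in 1 to 5 libraries and 28.0 at the 28 with a peak in all 6. Over all genes the medians were 4, 19 and 27. The letters GGGCGG, read on both strands, occurred in 27.8%, 70.0% and 82.1% of these segment promoters, beside 47.8% of all promoters of the same length. Over all genes the shares were 20%, 61.6% and 77.9%. These matches describe the letters and show no bound factor, and the starts of 1 library are not independent of each other. Mean CpG number at starts with a peak differed little between libraries, from 24.2 in Azin2-/- replicate 1 to 26.1 in wild-type replicate 2.

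**Figure D1:**
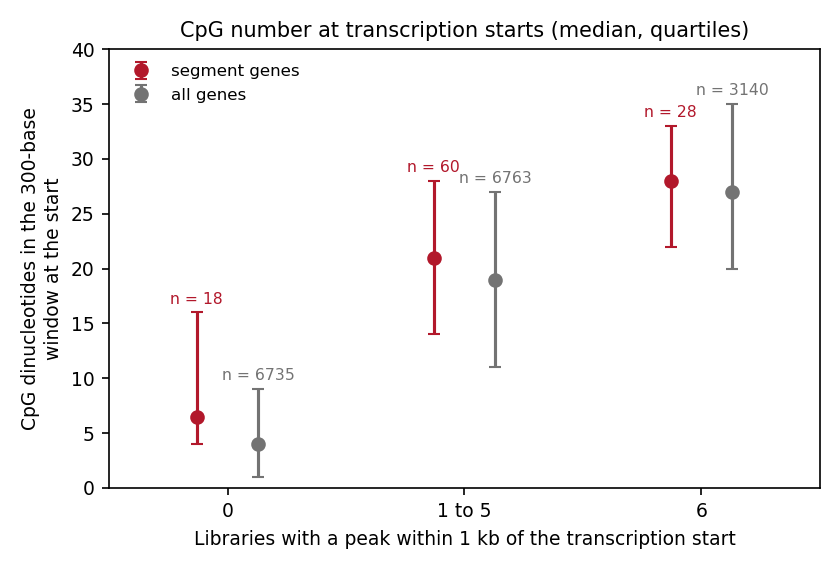
The number of CpG dinucleotides in the 300-base window at the start (vertical axis) is plotted for starts with a peak among the 30000 strongest in 0, 1 to 5 or 6 libraries (horizontal axis), with points for medians and bars for quartiles. Segment genes (red) and all genes (grey) rise together, from medians of 6.50 and 4 to 28.0 and 27.

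The libraries differed in depth and length, and this touches every value below. Read totals are not given. The depth of background, computed from fold and p, was lowest in wild-type replicate 1, at 0.125 fragments per bp, and highest in Azin2-/- replicate 8, at 0.957. Comparisons therefore used the 30000 peaks of smallest p in each library, which are called strong peaks here. These covered between 16.9 and 28.9 Mb. The name refers to rank only. A deposited q of 0.01 or less was reached by 26146, 15091 and 9798 peaks of a library in Azin2-/-. In wild-type it was reached by 6858, 12601 and 12867. The strong peaks of every library thus included peaks with a larger q. In the segment the median pileup at the summit of a strong peak was 10, 6 and 13 fragments in Azin2-/- and 3, 9 and 5 in wild-type. The lowest was 3, 4 and 6 fragments in Azin2-/- and 2, 3 and 4 in wild-type. Of the marker genes of other cell types, the leukocyte genes Ptprc, Csf1r, Adgre1 and Cd3e had no strong peak within 1 kb of either end in any library, and neither did the endothelial genes Pecam1 and Cdh5. The third endothelial gene, Kdr, had one in Azin2-/- replicates 1 and 2 and in no other library. Strong peaks in the 3 endothelial loci summed to 3510, 3902 and 404 bp in Azin2-/- and 0, 2304 and 780 bp in wild-type, so the genotypes overlapped. The epithelial gene Epcam had one in all 6 libraries. The muscle genes Myod1 and Des had 2, 2 and 2 such genes in Azin2-/- and 0, 1 and 0 in wild-type. The part of endothelial and muscle marks in the results was not tested. Of 6 adipocyte genes, Cebpa and Plin1, a transcription factor and a lipid droplet coat, had an end peak in all 6 libraries, and Adipoq in none. Pparg, Fabp4 and Lpl had one in some libraries only. The adipocyte genes with an end peak numbered 3, 3 and 2 in Azin2-/- and 4, 3 and 2 in wild-type. Of 6 progenitor genes, Pdgfra, Ly6a and Dpp4 had an end peak in no library, and none of the other 3 had one in all 6. The number with one was 2, 1 and 0 in Azin2-/- and 1, 1 and 1 in wild-type, and the 6 loci together held between 2559 and 7390 bp of strong peaks in every library. A peak list does not measure the Azin2 transcript, and the genotype labels were not checked here.

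Among windows of 3 Mb the segment held the largest part of the strong peaks' length in 5 of 6 libraries. Its share of that length was 1.02%, 0.768% and 0.509% in Azin2-/- and 0.584%, 0.483% and 0.697% in wild-type, where the median over 861 windows of the genome lay between 0.0908% and 0.108%. The comparison of interest was with the 20 windows nearest in gene number, which held 83 to 155 protein-coding genes outside the olfactory and vomeronasal families against 137 in the segment. Most of these windows held fewer genes than the segment, so gene number was not fully matched. The segment's share was between 1.78 and 2.59 times the median of these windows. It was first of all 861 windows in every library but wild-type replicate 2b, where 4 to 7 Mb of chromosome 19 had 0.490% against 0.483%. In covered length this came to 296, 174 and 108 kb in Azin2-/- and 98.4, 135 and 153 kb in wild-type. In no library did more than 1 of the 20 windows reach the segment's share. Tied peaks were ordered by chromosome name as text, so those of chromosome 10 entered a list before those of most chromosomes. The part of this in the shares and ranks was not tested. At a deposited q of 0.01 or less, the segment's share was 0.985%, 0.930% and 0.751% in Azin2-/- and 0.662%, 0.690% and 0.911% in wild-type. With all deposited peaks it was 0.188%, 0.176% and 0.131% against 0.155%, 0.157% and 0.169%.

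The peaks at the very top of each list gave a similar picture. Of the 5000 strongest peaks of a library, 41, 53 and 45 lay in the segment in Azin2-/- and 32, 35 and 44 in wild-type, against medians of 17.5 to 21.5 in the similar windows. The segment was first of all windows in 4 libraries. It was second to 70 to 73 Mb of chromosome 8 in Azin2-/- replicate 1, with 41 against 42 peaks, and to the chromosome 19 window in wild-type replicate 2b, with 35 against 38.

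Between genotypes both measures overlapped. The share of covered length was 0.766% ± 0.257 in Azin2-/- against 0.588% ± 0.107 in wild-type (SD, n = 3), a ratio of 1.30, and the similar windows had ratios between 0.879 and 1.41 with a median of 1.10. The segment's ratio was the third highest of these 21 windows. Without Azin2-/- replicate 1, the library with the most segment cover, the ratio was 1.09, the sixth of 21, and the median of the similar windows was 1.00. Peaks among the 5000 strongest numbered 46.3 ± 6.11 and 37.0 ± 6.24 (SD, n = 3), a ratio of 1.25 beside a median of 1.10 in the similar windows. At a deposited q of 0.01 or less the segment held 213, 116 and 71 peaks in Azin2-/- and 40, 74 and 93 in wild-type, so the genotypes overlapped there too.

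**Figure D2:**
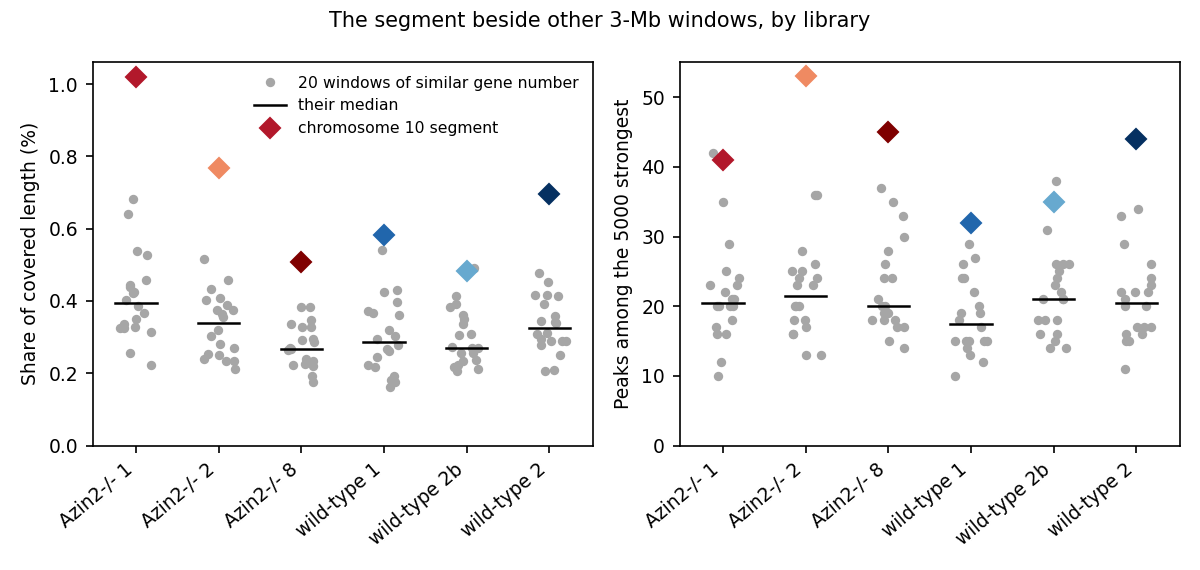
Each library's share of strong-peak length (left, percent) and number of peaks among its 5000 strongest (right) are plotted for the segment (coloured diamonds) and for 20 windows of 3 Mb with similar gene number (grey points, black lines for medians). The diamond lies above every grey point except in wild-type replicate 2b on the left and in that library and Azin2-/- replicate 1 on the right.

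Within the segment the strong peaks lay almost wholly in a core between 79.5 and 81.6 Mb with 123 genes. The core held between 94.5% and 99.6% of the segment's strong-peak length in every library. The left flank, 79 to 79.5 Mb, holds 7 genes, among them olfactory and vomeronasal receptor genes, and had 1210, 1432 and 4224 bp of strong peaks in Azin2-/- and 5151, 3572 and 2454 bp in wild-type. In the right flank, 81.6 to 82 Mb, with 13 genes, strong peaks covered 308 bp in wild-type replicate 1 and 0 bp in the other libraries.

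Most of the right flank could not be measured. From 81600979 to 81998209, a length of 397 kb, none of the 6 lists held a peak of any strength, although elsewhere in the segment each list held between 35.8 and 67.3 peaks per 100 kb. There were 6 such stretches over 10 kb in the segment, 602 kb in all or 20.1% of it, and 1850 with a length of 102 Mb in the genome. They contained 16 segment genes whole. In the longest stretch lay Sirt6, a NAD-dependent deacylase that acts on histone H3, the zinc finger genes Zfp433 and Zfp781, and 10 others. Eef2, the elongation factor that every cell needs for translation, and the kinase gene Dapk3 lay in a stretch from 81167701 to 81199323. Gadd45b, a stress-induced gene, lay in another from 80928622 to 80996213. A stretch of 13.6 kb from 80102261 to 80115903 took in parts of Sbno2 and Stk11. The value of 0 at these genes is therefore not a measurement of unacetylated chromatin. The cause of the empty stretches was not tested.

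**Figure D3:**
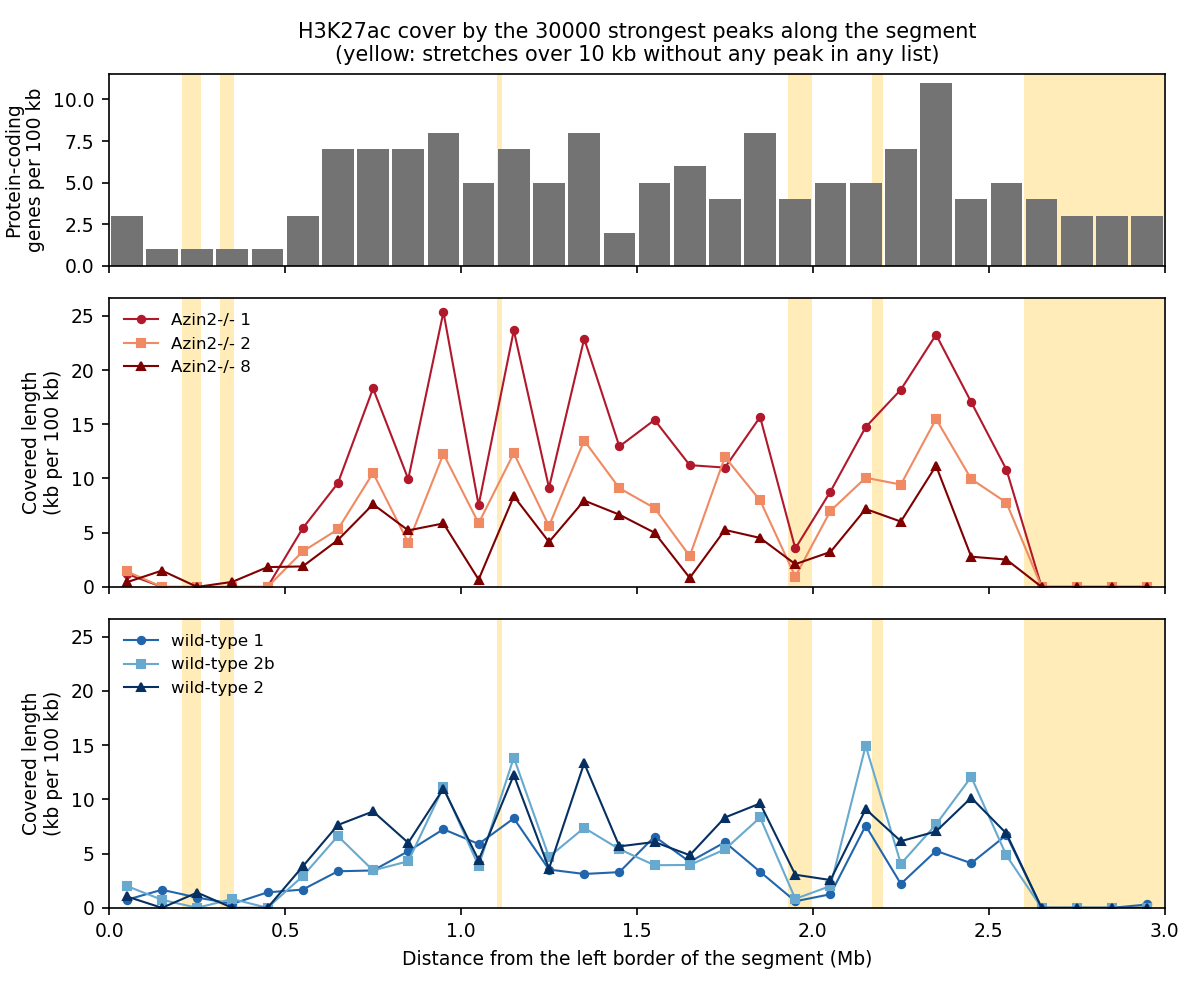
Protein-coding genes per 100 kb (top) and strong-peak length in kb per 100 kb for the Azin2-/- libraries (middle) and the wild-type libraries (bottom) are plotted against distance from the left border of the segment, with yellow bands for stretches over 10 kb without any peak in any list. Cover begins near 0.5 Mb, follows the gene-rich core and is absent in the last band.

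Strong peaks merged into 450 regions of the segment, out of 128486 in the genome. All 6 libraries held 37 of them, 8.22% against 3.23% in the genome, and 1 library alone held 283, 62.9% against 85.8%. The shared regions were long and lay at starts. Their median length was 2198 bp and 30 of 37 had an annotated start within 1 kb, whereas the regions of 1 library had a median of 598 bp and 25 of 283 had a start. Azin2-/- replicate 1 gave 90 of the 283 and wild-type replicate 1 gave 68. The order of tied peaks at the end of a list touches these shares and those of gene ends and loci below. Its part in them was not tested.

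The 3 shared regions with the best mean rank lay at starts of Cirbp, Map2k2 and Zbtb7a. The region at Cirbp, the gene of a cold-inducible RNA-binding protein, spanned 80167615 to 80168877 and held the peak ranked 639, 900 and 83 in Azin2-/- and 226, 141 and 455 in wild-type. At Map2k2, which encodes the kinase MEK2 of the ERK pathway, the region from 81105085 to 81106657 had ranks of 1019, 3923 and 461 in Azin2-/- and 639, 376 and 1019 in wild-type. At Zbtb7a, the gene of a transcriptional repressor, the region from 81133997 to 81138904 covered 4491, 1954 and 2236 bp in Azin2-/- and 2266, 3795 and 2648 bp in wild-type. The genotypes overlapped in covered length at all 3 regions.

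Strong peaks at the 2 ends of a gene were more common here than in the genome. Within 1 kb of either gene end, 41 of 143 genes had one in all 6 libraries, 28.7% against 18.0% of 21631 protein-coding genes, and 28 had none in any library, 19.6% against 38.1%. Some genes overlap their neighbours here and share a peak, so these counts are not of independent genes.

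Of the 10 polyamine and metabolic genes, Oaz1, Gamt and Stk11 had a strong peak at a gene end in all 6 libraries and Nmrk2 in none. Oaz1, from 80826656 to 80829290, had 1454, 657 and 690 bp of strong peaks in its locus, which is the gene with flanks of 1 kb, in Azin2-/- and 700, 1200 and 853 bp in wild-type. The genotypes overlapped, with a log2 difference of -0.11 (SE 0.37, limma adjusted p = 0.965), or 0.40 with the 15000 strongest peaks. Every log2 difference of a locus is that of log2(scaled length + 500 bp), Azin2-/- minus wild-type, and is no fold change where a group has no cover. Dohh, from 81384434 to 81388352, had 1786, 120 and 1939 bp in Azin2-/- and 0 bp in all wild-type libraries. Its log2 difference was 1.56 (SE 0.73, limma adjusted p = 0.770), and the Azin2-/- replicate 2 value lay close to that of the wild-type libraries. The 120 bp of that library came from a region past the gene, from 81388950 to 81389766, which reaches into the flank. Gamt, whose enzyme makes creatine, had 1487, 708 and 709 bp against 580, 904 and 402 bp. Gpx4, which removes lipid peroxides, had 1682, 2175 and 679 bp against 732, 895 and 788 bp. Stk11, the kinase LKB1 that activates AMPK, had 2221, 3335 and 121 bp against 694, 1110 and 1423 bp. In each of these last 3 genes the genotypes overlapped. Cfd, the gene of the adipocyte protease adipsin, had 832 bp in Azin2-/- replicate 1 and 0 bp in the other libraries. Of the 10 genes of this group 8 were tested and 0 passed, with a median log2 difference of 0.64 and 7 positive, and the smallest p-values were at the zinc transporter gene Slc39a3 and the peptidase gene Thop1, with differences of 1.57 and 1.23.

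Among genes of G proteins, receptors and kinases, Gna11 and Map2k2 had strong peaks at a gene end in all 6 libraries. Gna11, from 81528724 to 81545162, had 1964, 727 and 1269 bp in Azin2-/- and 2340, 1462 and 1736 bp in wild-type, with a log2 difference of -0.54 (SE 0.39, limma adjusted p = 0.800). Its neighbour Gna15, a G protein alpha subunit of blood cells, had 730 bp in Azin2-/- replicate 1, 1542 bp in wild-type replicate 2 and 0 bp in the other 4, and fell under the minimum mean of 500 bp. Map2k2 had 1721, 894 and 629 bp against 937, 1346 and 761 bp, and the genotypes overlapped. Kiss1r, the receptor of kisspeptin, had 3003, 2710 and 1314 bp against 160, 1300 and 0 bp, and Matk, a kinase that inhibits Src family kinases, had 2311, 1252 and 590 bp against 0 bp in all wild-type libraries. The highest wild-type value at Kiss1r thus lay just under the lowest Azin2-/- value, whereas Matk had no wild-type cover. Their log2 differences were 1.68 (SE 0.49) and 1.76 (SE 0.59), each with a limma adjusted p of 0.733. Csnk1g2, a casein kinase gene, went to the other side at -0.97 (limma adjusted p = 0.802), with all of its Azin2-/- cover, 3812 bp, in replicate 1. Of 15 genes 11 were tested, 8 were positive with a median of 0.23, and 0 passed.

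Some genes of transcription and chromatin were among the loci with the longest cover of the segment. The 5 loci of largest mean length were Zbtb7a, Nfic, Cbarp, Midn and Tcf3, of which 3 belong to this group. Zbtb7a had 9679, 6078 and 4154 bp in Azin2-/- and 3021, 8521 and 4821 bp in wild-type. Nfic, a member of the nuclear factor I family, had 9491, 6196 and 1181 bp against 3984, 6125 and 7700 bp. Both genes overlapped between genotypes, with log2 differences of 0.17 and -0.51 that changed sign under 3 alternatives each. Tcf3, which encodes the E2A proteins E12 and E47, had 5160, 5558 and 3904 bp in Azin2-/- and 1445, 2210 and 2447 bp in wild-type. All Azin2-/- values lay above all wild-type values, and the log2 difference was 0.98 (SE 0.31, limma adjusted p = 0.733), but -0.30 with the 5000 strongest peaks.

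At Hmg20b the genotypes lay farthest apart. The gene, from 81346046 to 81350943, had 2922, 3454 and 1801 bp of strong peaks in Azin2-/- and 0 bp in every wild-type library. The log2 difference was 2.61 (SE 0.42, limma adjusted p = 0.599), the largest in either direction among the 95 segment loci tested, and it did not pass. Hmg20b and Tcf3 were the members of this group with the smallest p. Sbno2, a homologue of the fly gene strawberry notch, went the other way with 2813, 0 and 417 bp against 4009, 3035 and 2741 bp, and its log2 difference was -1.85 (SE 0.59, limma adjusted p = 0.733). Pwwp3a, a gene with a PWWP domain that is not in the group, had 1016, 0 and 466 bp against 1542, 1598 and 1496 bp, with -1.30 (SE 0.46, limma adjusted p = 0.733). Sbno2 has part of its body in an empty stretch. Of the 18 genes 16 were tested, 8 positive and 8 negative with a median of -0.03, and 0 passed.

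Of the genes of RNA and translation 4 of 10 had an end peak in all 6 libraries, of mitochondria 1 of 5 and of the nervous system 5 of 10. Eef2 was listed at 0 in all libraries and lies in an empty stretch. Dazap1 and Celf5, both genes of RNA-binding proteins, had the smallest p-values of the 9 tested RNA genes. Dazap1 had 5611, 2975 and 2037 bp in Azin2-/- and 1070, 2028 and 402 bp in wild-type, so that the genotypes just miss each other. Celf5 had 4520, 2876 and 1199 bp against 313, 1968 and 1448 bp, and there the genotypes overlap. Polrmt, the mitochondrial RNA polymerase gene, had 3465, 2993 and 1662 bp against 0, 534 and 956 bp, a log2 difference of 1.75 (SE 0.46, limma adjusted p = 0.733). Atp5d, a subunit of ATP synthase, had 3917, 1513 and 3070 bp against 1819, 3859 and 1865 bp, with full overlap. Of the 9 tested RNA genes 5 were positive and 4 negative, with a median of 0.36, and both tested mitochondrial genes were positive. Of the 9 tested genes of the nervous system 8 were positive, with a median of 0.41, and none of these genes passed. Over all loci tested in the genome 53.5% were positive.

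Hcn2 encodes a pacemaker channel of heart and brain. Its locus, from 79716634 to 79736108, had 4615, 3157 and 3839 bp in Azin2-/- and 0, 0 and 2762 bp in wild-type, a log2 difference of 2.15 (SE 0.67, limma adjusted p = 0.733). Wild-type replicate 2 lay near the lowest Azin2-/- library, and the 2 other wild-type libraries had no strong peak there. Apc2, a relative of the tumour suppressor gene Apc, had 6208, 2833 and 1739 bp against 838, 0 and 0 bp, a log2 difference of 2.26 (SE 0.54, limma adjusted p = 0.733). Cbarp, a regulator of calcium channels, had 6290, 3577 and 3541 bp against 3498, 4330 and 3092 bp. Midn, the gene of midnolin, had 6354, 3844 and 745 bp against 2428, 4401 and 3425 bp. Both of these had long cover in most libraries and overlapped between genotypes.

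Genes of cell junction and surface included Mfsd12, which encodes a lysosomal cysteine transporter, and Tjp3, which encodes the tight junction protein ZO-3. Mfsd12, from 81357491 to 81366225, had 3862, 2668 and 2910 bp in Azin2-/- and 468, 987 and 685 bp in wild-type. The groups were well apart, at 3147 ± 631 and 713 ± 261 bp (SD, n = 3), a log2 difference of 1.51 (SE 0.30, limma adjusted p = 0.599), but -0.06 with the 5000 strongest peaks. Next to it 4930404N11Rik had 2547, 2038 and 1359 bp against 0 bp in all wild-type libraries, from a peak region that also overlaps Mfsd12. Tjp3 had 8756, 3844 and 1792 bp against 0, 1530 and 1450 bp, and Apba3, an adaptor protein gene whose end overlaps that of Tjp3, had 3027, 1916 and 1100 bp against 543, 478 and 411 bp. Their log2 differences were 1.84 (SE 0.59) and 1.19 (SE 0.38), both with a limma adjusted p of 0.733. Of the 7 tested genes of this group 6 were positive, with a median of 0.25, and 0 passed.

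Of the 6 genes of blood cell proteases and related proteins, 1 had an end peak in all 6 libraries, Prss57, and 2 had one in none. The neutrophil protease genes Elane and Prtn3 had no strong peak in their loci in any library. Prss57, a related protease gene whose span overlaps the start of Palm, had 1060, 553 and 1005 bp in Azin2-/- and 1388, 1473 and 1090 bp in wild-type. The 4 vomeronasal receptor genes had no strong peak at a gene end in any library, and their loci together held 465 bp in Azin2-/- replicate 8, 1916 and 1406 bp in wild-type replicates 1 and 2, and 0 bp in the others. The 2 genes with Zfp symbols lay in the longest empty stretch and were not measured.

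**Figure D4:**
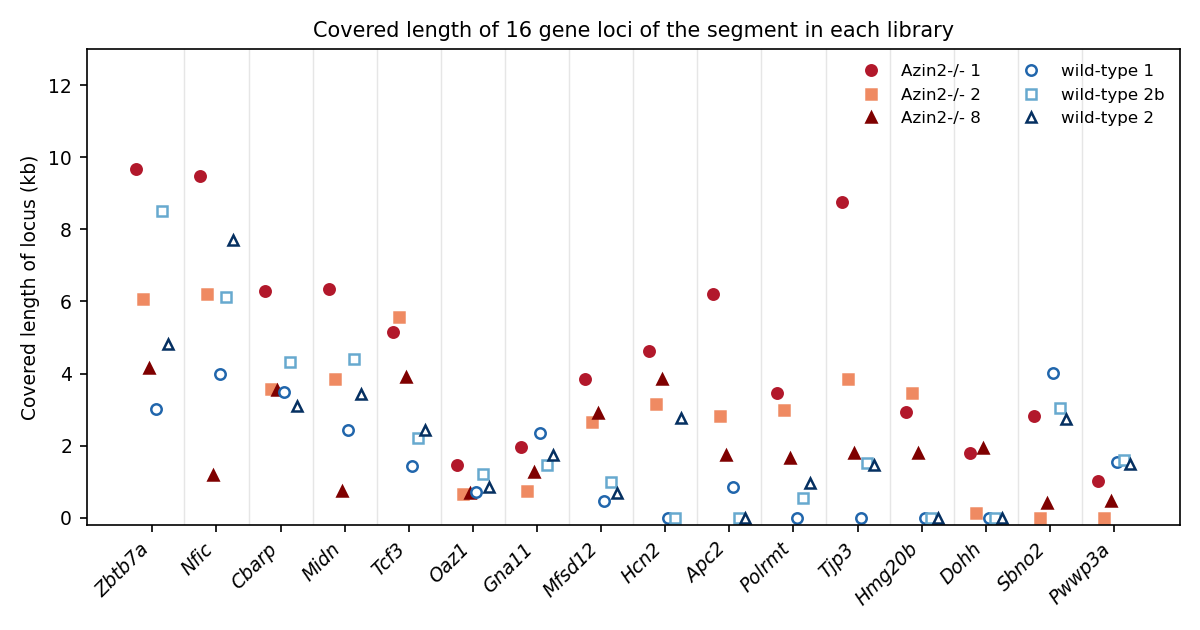
Covered length in kb (vertical axis, before scaling) is plotted for 16 gene loci in each library, with filled symbols for Azin2-/- and open symbols for wild-type. All 3 Azin2-/- values lie above all wild-type values at Tcf3, Mfsd12, Hcn2, Apc2, Polrmt, Tjp3, Hmg20b and Dohh, and the values overlap at Zbtb7a, Nfic, Cbarp, Midn, Oaz1, Gna11 and Sbno2. At Pwwp3a the Azin2-/- values lie below.

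No locus of the segment passed the genome-wide test. Of 143 genes 95 reached the minimum mean of 500 bp, and limma gave 0 of 95 an adjusted p under 0.05, as it did 0 of 10527 loci in the genome, which is 0%. At an unadjusted p under 0.05, 14 segment loci (14.7%) were higher in Azin2-/- against 4.15% of all loci, and 2 (2.11%) were lower, Sbno2 and Pwwp3a, against 2.35%. After scaling to equal total cover, all Azin2-/- values lay above all wild-type values at 16 loci, 16.8% against 6.77%, and below them at 4, 4.21% against 5.22%. The 4 were Prss57, Sbno2, Pwwp3a and the ribosomal protein gene Rps15. The median log2 difference was 0.36 over the segment's 95 loci, with 67 positive (70.5%), and 0.05 over all loci, with 53.5% positive. Without Azin2-/- replicate 1 the median of the segment was 0.04 beside 0.01 over all loci, and 12 of 90 loci (13.3%) had an unadjusted p under 0.05 beside 4.95%. Without Azin2-/- replicate 8 it was 0.62 beside 0.08. At a deposited q of 0.01 or less, where ties decide nothing, it was 0.31 beside -0.07. In that setting 12 of 81 loci (14.8%) had an unadjusted p under 0.05 in limma, beside 8.56%.

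At single regions the largest differences were of presence in the lists of strong peaks. In limma 0 of 183 segment regions tested, and 0 of 22205 in the genome (0%), had an adjusted p under 0.05. At an unadjusted p under 0.05, 19 were higher in Azin2-/- (10.4% against 4.05%) and 3 lower (1.64% against 1.46%). Strong peaks of all Azin2-/- and no wild-type library made up 13 of 450 regions, 2.89% against 0.412%, and those of all wild-type and no Azin2-/- library 0, against 0.0257%. Of these 13, 9 had a weaker deposited peak in all 3 wild-type libraries and 0 had none in any.

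The 5 regions of smallest p with more cover in Azin2-/- all had 0 bp of strong peaks in wild-type. They covered 2739, 2591 and 1268 bp from 81271588 to 81275733 at Apba3 and Tjp3, and 2547, 2038 and 1359 bp from 81363090 to 81365743 at Mfsd12. At the start of Hcn2, from 79715930 to 79717895, they covered 1966, 1456 and 1513 bp, and at the start of Hmg20b, from 81349308 to 81351809, 1600, 2011 and 1053 bp. In Cbarp, from 80131037 to 80133348, they covered 2312, 1528 and 767 bp. The limma adjusted p was 0.603 for each. The best wild-type peaks in these regions were outside the 30000 strongest, at rank 33245 in wild-type replicate 2b for the Mfsd12 region and 36344 for the Cbarp region. At Hmg20b the best Azin2-/- peaks had ranks of 5186, 906 and 2356, and the best wild-type peaks 616520, 47114 and 185404. So the Mfsd12 region fell just outside the list in wild-type replicate 2b. In wild-type replicates 1 and 2 its best peaks were far outside, at ranks 599939 and 800947. The best peaks at the Hmg20b start lay outside the list in every wild-type library.

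The 5 regions of smallest p with less cover in Azin2-/- had smaller differences. At Arid3a, the gene of a DNA-binding protein of B cells, the region from 79926240 to 79928602 had 1544, 0 and 572 bp against 1138, 2271 and 1555 bp, a log2 difference of -1.61. At the start of Pwwp3a, from 80226064 to 80227925, it had 1016, 0 and 466 bp against 1010, 1598 and 1496 bp, a log2 difference of -1.64. At the start of Ptbp1, which encodes a splicing repressor, the region from 79853181 to 79855748 had 1189, 1002 and 967 bp against 2278, 2196 and 1113 bp, a log2 difference of -0.79. The others lay at the corepressor gene Tle5, from 81558752 to 81560685, at -1.76, and at the start of Cbarp, from 80135183 to 80140346, at -0.25. All 5 had a limma adjusted p of 0.603.

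Gene ends with a strong peak in every library of 1 genotype and none of the other were 4 in Azin2-/-, namely Tjp3, Hmg20b, 4930404N11Rik and Dohh, 2.80% of the genes against 0.851% in the genome. In wild-type there was 1, Odf3l2, 0.699% against 0.0601%. Dohh was counted in Azin2-/- replicate 2 only through the region past the gene, from 81388950 to 81389766. At annotated starts the Azin2-/- count was 3, with Hcn2, Matk and Hmg20b, 2.52% of 119 genes against 0.886% of 17274, and the wild-type count was 0, against 0.0116%. Hmg20b was the 1 gene in both Azin2-/- counts. In the 100 kb from 81.3 Mb, chosen after its values were seen, which hold 11 genes including Hmg20b, Mfsd12 and Dohh, strong peaks covered 23254, 15488 and 11170 bp in Azin2-/- and 5254, 7689 and 7045 bp in wild-type.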

How the data were processed

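The members, gene lists and alternatives were chosen with earlier results of these data known. H3K27ac ChIP-seq was deposited as 1 peak list per library on mm10 (GRCm38), per the submitters' processing notes, and the 6 input libraries were not analysed here. The aligner, peak caller, treatment of duplicates and use of the input were not given in the sources used here. Per peak, each deposited list gives a score, a fold ratio over local background, and −log10 p and q values, and the depth is unknown. These are the authors' values and were used only to rank, filter and describe peaks within a list. Pileup and background depth were computed from fold and p, if 1 was added to both terms of the fold, with 100% of pileups whole within 0.001 on the log10 scale.

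Peaks of equal p were ordered by fold, then by chromosome name as text and by position. Covered length is the union of the 30000 peaks of smallest p per library on chromosomes 1 to 19 and X. For gene loci (RefSeq, GRCm38.p6, gene body and 1 kb) it was scaled to equal total cover, log2 was taken with 500 bp added, at a minimum mean of 500 bp; for regions both values were 200 bp. Limma 3.58.1 (R 4.3.3) compared 3 Azin2-/- with 3 wild-type libraries over all loci or regions, with Benjamini-Hochberg adjustment at 0.05, and was tested on simulated data. Windows of 3 Mb were tiled from 1 Mb. Python was 3.11.15. Named were 17 genes of the segment listed for their function or earlier values, the 5 loci and 5 regions of smallest p in each direction, the 5 loci of largest mean cover, the 3 shared regions of best mean rank and the 2 members of smallest p in each role group. Azu1, listed among blood cell proteases, was not found in the segment. Other genes named fall outside this rule. Alternatives were other list lengths, a q of 0.01, all deposited peaks, fixed windows at summits, other flanks, pseudocounts, minimums and scalings, the replicate block, the mean of wild-type 2 and 2b, and each library left out. Starts in place of gene ends were added after seeing the data.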

Additional observations from a re-analysis of the deposited data

How the results depend on the processing

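The lists rank calls, not read counts, so a region missing from a list may be shallow in that library, and differences in depth between libraries cannot be told apart from differences in acetylation. At a q of 0.01 or less 1 segment locus passed, Hcn2, with a log2 difference of 2.24 and a limma adjusted p of 0.0386 (0.0386 to 0.976 over its alternatives), in a fit that gave the common trend of spread 1870 degrees of freedom. With fixed windows, 250 bp to either side of a summit, 2 loci passed, Zbtb7a at 1.07 (limma adjusted p = 0.0345, range 0.0345 to 1.000) and Mfsd12 at 0.58 (0.00345, range 0.00345 to 0.992). Over the genome 39 of 8527 loci passed at that q, beside 1 of 81 in the segment. With fixed windows 43 of 7985 loci passed, beside 2 of 78. With the same windows 10 of 119 segment regions passed, beside 567 of 11367 in the genome. Of these 10, 9 were higher and 1 lower, all at 1.81 or -1.81, and they restate presence in 1 genotype. In every other alternative 0 loci and 0 regions of the segment passed.

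Gene ends of Azin2-/- alone numbered 1 with the 60000 strongest peaks, 0 with all deposited peaks and 2 with ends of 2 kb, and 4 to 10 when a library was left out (10 without Azin2-/- replicate 8, and 8 with wild-type replicate 2b left out). Gene ends of wild-type alone numbered 0 with the 15000 strongest peaks, at a q of 0.01 or less, with all deposited peaks, with ends of 2 kb and with starts, 3 with the 5000 strongest, 2 with replicates 2 and 2b averaged, and 1 to 2 when a library was left out (2 without wild-type replicate 2). The shares over all genes are not given for these settings, so the counts only describe the segment. With a library left out the rule asks for fewer libraries, so more genes anywhere can meet it.

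The sign of the log2 difference turned at some named loci, and none of these values passed in the alternative. With the 15000 strongest peaks Zbtb7a was at -0.05 and Oaz1 at 0.40. With the 5000 strongest Mfsd12 was at -0.06, Zbtb7a at -0.12, Tcf3 at -0.30 and the Cirbp region at 0.09. With the 60000 strongest Oaz1 was at 0.03, Map2k2 at 0.17 and the Cirbp region at 0.01. At a q of 0.01 or less Gpx4 was at -0.13, Stk11 at -0.24, Zbtb7a at -0.44, Gamt at -0.54, Cbarp at -0.67 and Oaz1 at 0.31. With fixed windows Stk11 was at -0.54, Nfic at 0.22 and Midn at 0.29. Without scaling Map2k2 was at 0.02 and the Cirbp region at 0.10, with a pseudocount of 100 bp Stk11 was at -0.06, and with flanks of 5 kb Atp5d was at -0.15. When a library was left out, Cbarp ranged from -0.02 to 0.25, Stk11 from -0.42 to 0.90, Atp5d from -0.14 to 0.32, Map2k2 from -0.26 to 0.07, Nfic from -0.91 to 0.17, Midn from -0.74 to 0.30, the Cirbp region from -0.17 to 0.10 and the Map2k2 region from -0.49 to 0.07. Without scaling the median over all regions moved from 0.17 to 0.29, and that of the segment's regions from 0.48 to 0.72.

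With the replicate block 0 loci and 0 regions of the segment passed, as without it. The median of the segment's loci with the block was 0.59, beside 0.10 over all loci. Of the segment's 95 loci, 19 had an unadjusted p under 0.05 in limma with the block, beside 7.22% of all loci. In that fit Nfic was at 0.05, Map2k2 at 0.09, Midn at 0.32 and the Map2k2 region at 0.06. The genotypes share only the numbers 1 and 2, and over all loci the deviations of same-numbered libraries had correlations of -0.0386 and 0.126. The value of 0.126, for the replicates 2, was the highest across genotypes, where the other pairs ran from -0.102 to 0.0827. These small values do not settle whether same-numbered libraries are paired.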
